A study of Homo sapiens with 2 samples.

Results

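Binding of the transcription factor MYBL2 was examined at 10 genes of the cohesin pathway: the ring subunits SMC1A, SMC3, RAD21, STAG1 and STAG2, the loader subunits NIPBL and MAU2, the release factor WAPL, the regulator PDS5A and the separase gene ESPL1. For each gene, peaks that overlapped 1000 bp either side of any annotated transcription start site (TSS) were taken from the deposited list. The genes are 10 of 38690 protein-coding and lncRNA genes in the annotation, and 26 of the 66954 peaks lay at their promoters. The study immunoprecipitated sheared, cross-linked chromatin of A673, an established cell line of Ewing sarcoma, a bone and soft tissue tumor driven by the EWSR1-FLI1 fusion protein. The cells are labelled wild type, and 1 ChIP library and 1 input library (the same kind of chromatin without immunoprecipitation) were sequenced. The labels name an antibody against MYBL2, which the methods describe as recognizing its phosphorylated form. With 1 library of 1 cell line no replicate exists, the only error given is that of counting, and no p-value is given.

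Cohesin is a ring of SMC1A, SMC3 and the kleisin RAD21 that carries STAG1 or STAG2 and encloses DNA. The NIPBL-MAU2 loader places it on chromatin, WAPL with PDS5A releases it from chromosome arms, and separase cleaves RAD21 so that sister chromatids part at anaphase. STAG2 is a recurrently mutated tumor suppressor in Ewing sarcoma. MYBL2 (B-MYB) joins the MuvB complex on promoters of genes expressed late in the cell cycle, where MuvB contacts the cell cycle genes homology region (CHR).

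The measure used throughout is the authors' fold enrichment, a linear ratio of the ChIP fragments piled up at a peak's summit plus 1 to the background derived from the input plus 1. That background cannot fall below a floor of 3.45 fragments, shared by all peaks. The strongest promoter peaks of RAD21, STAG1, MAU2, WAPL and PDS5A had this floor as their background, and those of the other 5 genes had a higher local value of up to 4.66 fragments. The whole number of fragments at the summit (the pileup) was recovered for every peak, and its exact 95% Poisson interval was carried over to the fold enrichment. These intervals cover counting error of the ChIP fragments only. The background was held fixed, so counting error of the input is left out, and pairs with narrowly separated intervals are less certain. Over the whole list the fold enrichment ran from 1.54 to 64.9 with a median of 3.79, and the median pileup was 20 fragments.

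All 10 genes had a promoter peak (95% Clopper-Pearson interval 69.2 to 100%), against 41.9% of all genes and 59.4% of protein-coding genes. All 10 also had one with a fold enrichment of at least 5, which 49.6% of protein-coding genes had. With a majority of coding promoters occupied, presence of a peak said little about these genes, and their levels are described instead. The strongest promoter peak of each gene ranged from a fold enrichment of 7.17 at STAG2 to 49.2 at MAU2, with a median of 14.3. The median over the 11941 protein-coding genes with a promoter peak was 8.67. Of the 10 genes, 8 lay above that median and 3 (MAU2, SMC1A and ESPL1) above its 90th percentile of 16.8, a value that the interval of ESPL1 includes.

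**Figure D1:**
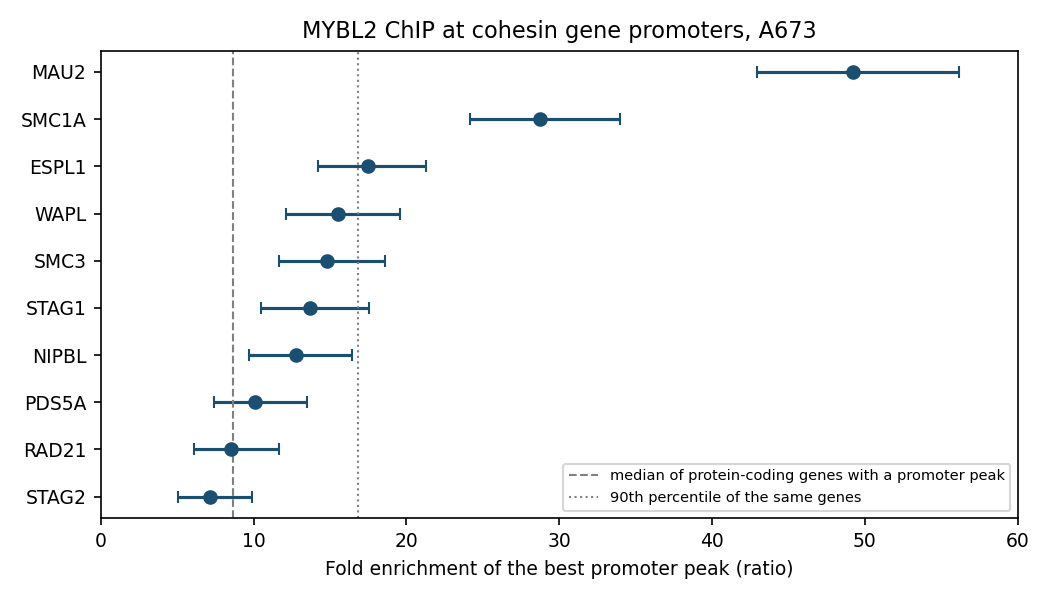
Fold enrichment of the strongest promoter peak of each gene (linear ratio), with bars for the 95% Poisson interval of the pileup. The dashed line is the median (8.67) and the dotted line the 90th percentile (16.8) of protein-coding genes with a promoter peak. MAU2 at 49.2 and SMC1A at 28.7 stand apart from the other 8 genes, whose neighbours in the order overlap.

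The 10 levels in order were MAU2, SMC1A, ESPL1, WAPL, SMC3, STAG1, NIPBL, PDS5A, RAD21 and STAG2. Of the 9 neighbouring pairs in this order, 2 had intervals that did not overlap, namely MAU2 against SMC1A and SMC1A against ESPL1. From ESPL1 down to STAG2 each gene overlapped the next. Over all 45 pairs, 24 had intervals apart. MAU2 was apart from all 9 other genes and SMC1A from the 8 below it. ESPL1 was also apart from PDS5A, RAD21 and STAG2, WAPL from RAD21 and STAG2, and SMC3 and STAG1 each from STAG2 alone.

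Among the ring ATPases, which together form the hinge and heads of the cohesin ring, SMC1A had the stronger peak. At SMC1A the fold enrichment was 28.7 (interval 24.1 to 34.0) from 135 fragments, the 198th strongest peak of the list. The peak covered 1879 bp of chromosome X (hg19, 53448197 to 53450075), and its summit lay in the 5′ UTR, 15 bp downstream of a TSS. The same peak lay at the promoter of RIBC1, which is transcribed from the opposite strand and starts 51 bp from the summit, so the signal cannot be assigned to either gene alone. SMC3 had a fold enrichment of 14.8 (11.6 to 18.6) from 72 fragments. Its peak of 1896 bp on chromosome 10 (112326345 to 112328240) had its summit 442 bp upstream of the nearest TSS, and no other gene shared it. The SMC1A value was 1.94 times that of SMC3, and their intervals did not overlap.

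RAD21, the kleisin that closes the ring and is cut by separase, had one of the weaker peaks. Its fold enrichment was 8.54 (6.08 to 11.7) from 37 fragments, at the 48.4th percentile of protein-coding genes with a promoter peak. The peak of 401 bp was the narrowest of the 10, and its summit lay 54 bp upstream of a TSS. The antisense lncRNA gene RAD21-AS1 has a TSS 406 bp from the summit. RAD21 also had more promoter peaks than any other of the 10 genes, 6, over 18 annotated TSSs.

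The paralogs STAG1 and STAG2, which bind the ring through RAD21 and are alternatives to each other, differed in their values. STAG1 had a single promoter peak with a fold enrichment of 13.7 (10.5 to 17.6) from 60 fragments. That peak was the widest of the 10, at 2883 bp on chromosome 3 (136469642 to 136472524), with its summit 455 bp upstream of the STAG1 TSS and 228 bp downstream of the start of the divergent lncRNA STAG1-DT. STAG2 had 4 promoter peaks on chromosome X, side by side from 123093256 to 123097788. In genomic order their fold enrichments were 5.82 (3.91 to 8.38), 5.46 (3.85 to 7.53), 7.17 (5.05 to 9.89) and 4.05 (2.58 to 6.09). The 4 intervals overlapped, so no single strongest summit could be told from the rest. The second of them lay closest to an annotated STAG2 start, 14 bp from it. The highest had its summit 252 bp upstream of the nearest annotated STAG2 start. That summit was in intron 1 of the canonical transcript, 1212 bp downstream of the start of that transcript. The highest peak also reached the promoter window of the antisense lncRNA STAG2-AS1, whose nearest start lay 1577 bp from the summit. STAG1 was 1.91 times STAG2 at their strongest peaks, and the fold enrichment intervals were only narrowly apart (10.5 against 9.89). The intervals of the pileups overlapped, at 45.8 to 77.2 fragments for STAG1 and 24.4 to 48.7 for STAG2. The background, held fixed, was the floor of 3.45 fragments at STAG1 and 4.02 at STAG2, so this difference is less certain.

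**Figure D2:**
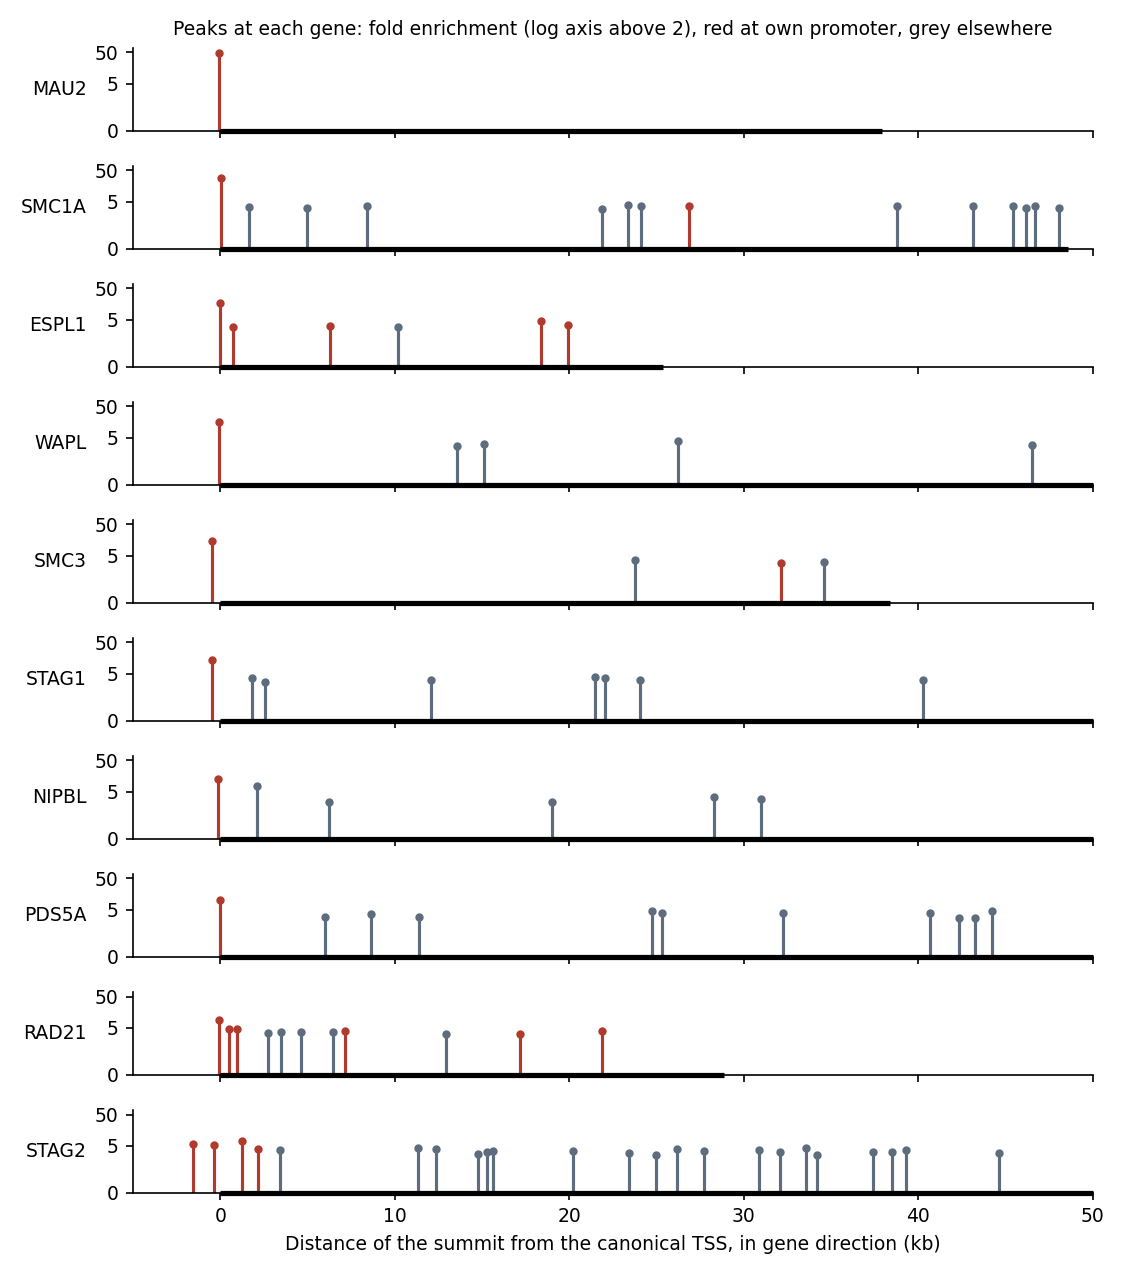
Peak summits at the 10 genes by distance from the canonical TSS (kb, transcription to the right, cropped at 50 kb), with fold enrichment on the vertical axis (log above 2), promoter peaks in red, other peaks in grey and the gene as a black bar. STAG2 shows 4 adjacent peaks between 4.05 and 7.17 around its start, where most other genes show a single dominant one.

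The sequences around the strongest promoter summits of both STAG genes are shown because these windows differ in base composition. Each is the 101 bases centred on the summit (GRCh37/hg19), written along the gene's strand, with capitals for motif matches. The STAG1 window is chr3:136471650-136471750 (minus strand) and its capitals cover a GC box (GGGCGG) and an overlapping E2F site (TTCCCGC, here on the other strand). The STAG2 window is chrX:123096718-123096818 (plus strand), with an inverted CCAAT box in capitals.
STAG1: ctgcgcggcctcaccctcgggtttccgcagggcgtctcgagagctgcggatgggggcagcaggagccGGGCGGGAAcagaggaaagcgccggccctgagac
STAG2: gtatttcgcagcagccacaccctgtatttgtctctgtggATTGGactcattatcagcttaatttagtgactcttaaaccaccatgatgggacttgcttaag

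The STAG1 window had a GC content of 72.3% and a CpG observed/expected ratio of 0.853. The STAG2 window had 42.6% GC and a ratio of 0.220, the lowest of the 10 genes on both measures. These STAG2 values hold for the summit of its highest peak only. The second STAG2 peak had the same pileup of 35 fragments, and base composition at the other STAG2 summits was not computed. Over the 10 genes the medians were 68.3% GC and a ratio of 1.08, and over the 11801 distinct strongest promoter summits of all genes, lncRNA genes included, they were 66.3% and 0.849.

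The loader holds both the strongest peak of the pathway and one near the middle. MAU2, the smaller loader subunit, had a fold enrichment of 49.2 (42.9 to 56.1) from 218 fragments (190.0 to 248.9). It was the 22nd strongest of all 66954 peaks and lay at the 99.8th percentile of protein-coding genes. The peak covered 1160 bp of chromosome 19 (19431063 to 19432222), with its summit 66 bp upstream of a MAU2 TSS and 254 bp upstream of the start of SUGP1 on the opposite strand, a splicing factor gene. As at SMC1A, the peak belongs to a promoter shared by 2 protein-coding genes. NIPBL, the large subunit that stimulates the cohesin ATPase, had a fold enrichment of 12.7 (9.71 to 16.5) from 57 fragments. Its peak of 2400 bp on chromosome 5 (36875495 to 36877894) had its summit 130 bp upstream of the NIPBL TSS and 18 bp downstream of that of the divergent lncRNA NIPBL-DT. MAU2 was 3.86 times NIPBL, and their intervals did not overlap.

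The summit windows of the loader genes are shown as the strongest peak and its partner, both on the plus strand of GRCh37/hg19, at chr19:19431522-19431622 for MAU2 and chr5:36876691-36876791 for NIPBL. Capitals mark a GC box (GGGCGG), which lay 0.5 bp from the MAU2 summit, and NIPBL held none of the 8 motifs searched.
MAU2: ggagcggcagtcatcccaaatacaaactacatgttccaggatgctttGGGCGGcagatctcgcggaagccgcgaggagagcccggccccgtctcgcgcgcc
NIPBL: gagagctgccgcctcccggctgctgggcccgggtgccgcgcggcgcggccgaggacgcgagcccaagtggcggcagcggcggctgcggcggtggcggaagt

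WAPL, which opens the ring to release it from DNA, had a fold enrichment of 15.5 (12.1 to 19.6) from 68 fragments. Its peak covered 1910 bp of chromosome 10 (88280401 to 88282310), with the summit 60 bp upstream of the WAPL TSS and 93 bp from that of the divergent lncRNA WAPL-DT. PDS5A, which acts with WAPL in release and also helps to protect acetylated cohesin, had 10.1 (7.41 to 13.5) from 44 fragments. The PDS5A peak of 1739 bp on chromosome 4 (39978254 to 39979992) had its summit in the 5′ UTR, 1 bp downstream of a TSS, and no other gene shared it. The WAPL and PDS5A intervals overlapped.

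ESPL1, the protease that ends cohesion, had the third strongest peak. Its fold enrichment was 17.5 (14.2 to 21.3) from 98 fragments, the 921st of the list and the 90.8th percentile of protein-coding genes. The peak was narrow, 694 bp on chromosome 12 (53661723 to 53662416), with its summit 36 bp upstream of the TSS, and no other gene shared it. The other 4 ESPL1 promoter peaks and those of the remaining genes were weak. Together, the 16 promoter peaks besides the strongest of each gene had fold enrichments of 2.88 to 5.82, with a median of 3.66. Several of them, at ESPL1, RAD21, SMC1A, SMC3, NIPBL and WAPL, lay inside the gene near annotated alternative starts.

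The ESPL1 sequence is printed because its summit lies between a CCAAT box and a CHR element, the pair of sites known from late cell cycle promoters, and WAPL because it also holds a CCAAT box. The ESPL1 stretch is chr12:53661997-53662082 (plus strand, GRCh37/hg19), which ends at the last base before the gene. Its capitals mark first the inverted CCAAT box and then the CHR (TTTGAA). The WAPL window is chr10:88281559-88281659 (minus strand), with an inverted CCAAT box and then a GC box in capitals.
ESPL1: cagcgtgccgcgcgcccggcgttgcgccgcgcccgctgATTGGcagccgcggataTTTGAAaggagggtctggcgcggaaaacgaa
WAPL: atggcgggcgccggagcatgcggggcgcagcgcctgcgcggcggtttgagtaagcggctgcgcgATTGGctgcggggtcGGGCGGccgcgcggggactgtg

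Short motifs, 8 in all, were sought on either strand within 50 bp of each gene's strongest promoter summit, and the same was done for all 11801 distinct strongest promoter summits. The CHR (TTTGAA or TTCGAA) was found at 2 of the 10 genes, RAD21 and ESPL1, and at 4.27% of all summits. At ESPL1 it was centred 7.5 bp downstream of the summit and at RAD21 6.5 bp downstream. The CCAAT box (CCAAT) was found at 3 genes, STAG2, WAPL and ESPL1, and at 9.98% of all summits. At the peak nearest to a TSS instead of the strongest, it was found at 2 genes, without STAG2. In ESPL1 it was centred 10 bp upstream of the summit, so that ESPL1 alone of the 10 genes held both elements. The share of all summits that hold both was not computed, so how unusual this pair is cannot be said. A MYB site (CAACNG or TAACNG), the pattern that the MYB DNA-binding domain recognizes, was found at RAD21 only, 45.5 bp from the summit, and at 17.6% of all summits.

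An E2F site (TTCCCGC or TTGGCGC) was found at SMC1A and STAG1, and at 5.47% of all summits. A GC box (GGGCGG) was found at RAD21, STAG1, MAU2 and WAPL, and at 27.1% of all summits. The ETS core (CCGGAAG), the NRF1 core (GCGCATGC) and the YY1 core (AAGATGG) were found at 0 of the 10, against 7.35%, 1.14% and 2.90% of all summits. SMC3, NIPBL and PDS5A held none of the 8 motifs. With 10 genes these counts describe the genes and were not tested. A match shows only that the letters are present in the window.

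**Figure D3:**
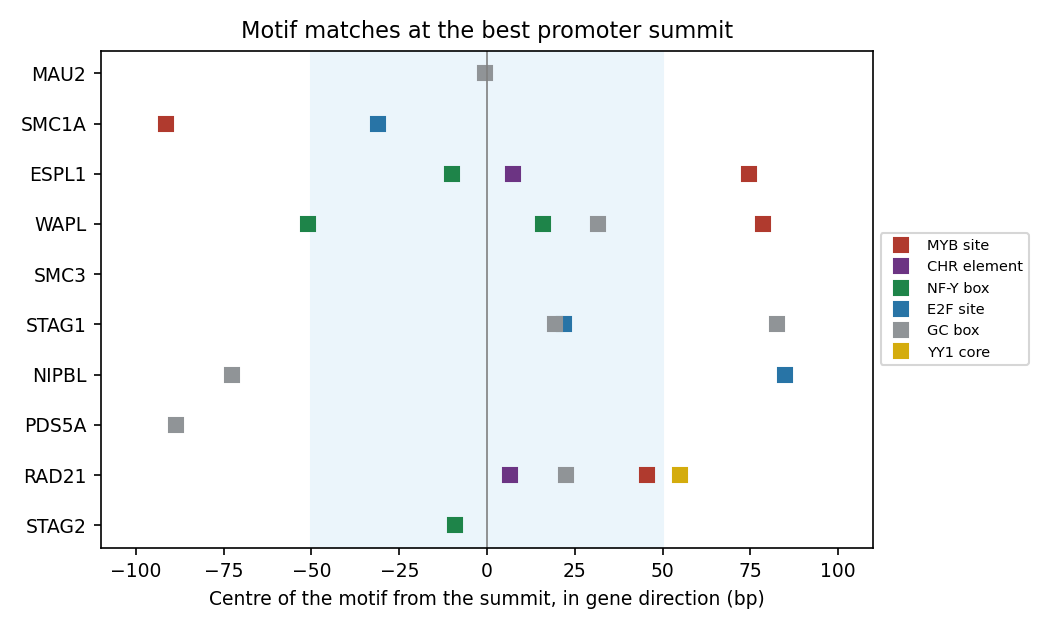
Motif matches within 100 bp of each gene's strongest promoter summit, placed by distance from the summit (bp, transcription to the right), with 1 row per gene and the window of 50 bp either side shaded. Only ESPL1 of the 10 genes has a CCAAT (NF-Y) box and a CHR, at 10 bp upstream and 7.5 bp downstream of the summit. The share of all summits with both was not computed.

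The promoter peaks were set beside other features of the genes. The strongest peak was shared with the promoter of another gene at 7 of the 10, against 49.2% of protein-coding genes with a promoter peak. The sharing gene was a protein-coding gene at SMC1A and MAU2 (2 of 10, against 30.7%) and a lncRNA gene at the other 5. The 2 genes with a coding partner were the 2 with the largest fold enrichments, but genes described below did not all follow this. NCAPG, which shares its peak with DCAF16, had 40.3, whereas STAG3, sharing with GPC2, and NCAPH2, sharing with LMF2, both had 9.21. Whether a coding partner goes with a higher level was not tested. The strongest peaks had a median width of 1809 bp, against 865 bp over protein-coding genes. Their summits lay within 100 bp of a TSS at 6 of the 10, against 58.6% of protein-coding genes with a promoter peak.

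Cohesin regulators and paralogs outside the 10 genes gave a wider view of the pathway. Of the 16 such genes, 15 had a promoter peak, the exception being the helicase gene DDX11, and their median was 12.9. Among the 12 mitotic regulators, PLK1, a kinase that removes cohesin in prophase, was strongest at 29.6, and HDAC8, which deacetylates SMC3, weakest at 3.88. CDCA5 (sororin, which opposes WAPL) and the SMC3 acetyltransferase ESCO2 both had 17.1, and PTTG1 (securin, the inhibitor of separase) had 10.5. PDS5B had 4.65, below its paralog PDS5A, and their intervals did not overlap.

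All 4 meiotic paralogs had a promoter peak, but 2 of them were weak. REC8 had 3.82 and RAD21L1 3.15, the lowest value of all these genes. The REC8 summit lay in an intron, 5518 bp from the canonical TSS and 91 bp from an annotated alternative start. SMC1B had 18.9 (15.1 to 23.3) at a promoter it shares with RIBC2, and STAG3 had 9.21 at a promoter shared with GPC2. SMC1B and SMC1A each share a divergent promoter with a RIBC gene. At a fold enrichment of at least 5, 11 of the 16 genes remained, without PDS5B, HDAC8, REC8, RAD21L1 and DDX11.

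The other SMC complexes had promoter peaks as well. Condensin, which compacts mitotic chromosomes, had one at 8 of 8 genes, with a median of 16.3 and a range from 9.21 at NCAPH2 to 40.3 at NCAPG. The SMC5/6 complex, which acts in DNA repair, had one at 6 of 6 genes, with a median of 12.3 and a range from 8.54 at NSMCE4A to 14.7 at SMC5. The cohesin median of 14.3 lay between these medians, and no difference between the complexes was tested.

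**Figure D4:**
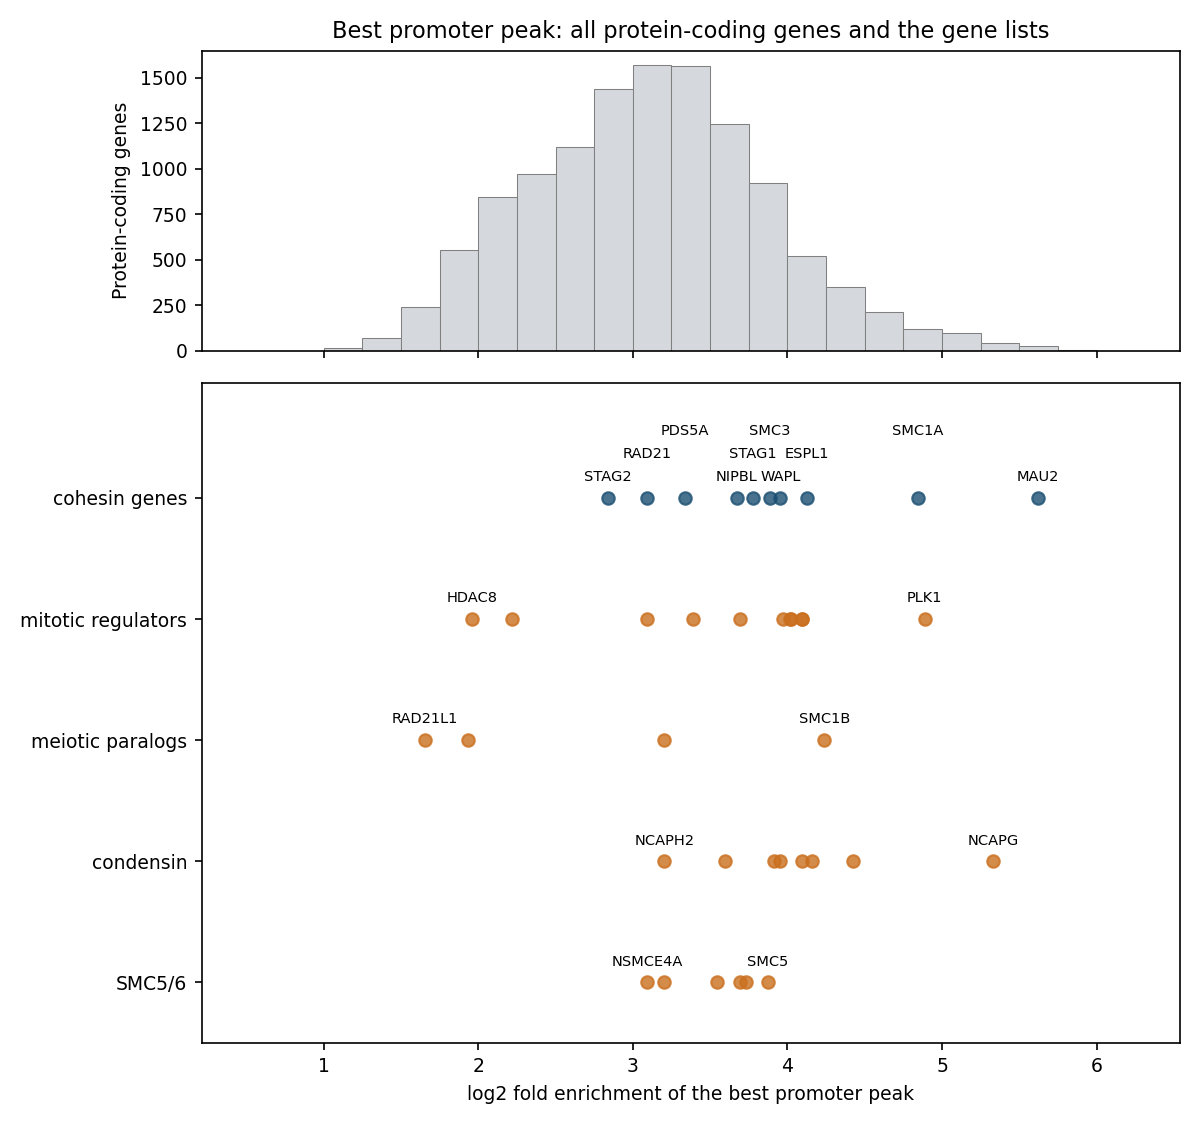
Log2 fold enrichment of the strongest promoter peak for all protein-coding genes with one (upper, number of genes per bin) and for each gene list (lower, 1 point per gene). MAU2 (fold enrichment 49.2) and the condensin gene NCAPG (40.3) lie in the upper tail, and HDAC8 (3.88) and RAD21L1 (3.15) in the lower.

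Peaks inside the genes but outside every promoter were counted as a measure the choice of promoter peaks did not use. The 10 genes held 105 such peaks, or 7.05 per 100 kb of gene, against 2.61 per 100 kb pooled over all protein-coding genes. STAG2 held 32, STAG1 19, PDS5A 18, SMC1A 12, NIPBL 10, WAPL 6, RAD21 5, SMC3 2, ESPL1 1 and MAU2 0. STAG2, with the weakest promoter peak, had the most, and MAU2, with the strongest, had none. However, 65.0% of all protein-coding genes had none, and the median for genes of like length to MAU2 was 0. SMC1A, with the second strongest promoter peak, held 12. A relation between promoter level and number of body peaks was not tested. The annotated span of STAG2 was the longest of the 10, at 462 kb, but its canonical transcript spanned 141 kb, less than those of STAG1, NIPBL and PDS5A, and held 28 of the 32 peaks. Among protein-coding genes within 1.5 times their own length, 5 of the 10 lay above the 90th percentile of peak number. These were SMC1A at 96.3, STAG2 at 95.8, PDS5A at 94.9, STAG1 at 92.8 and RAD21 at 91.3.

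By density, SMC1A had 24.7 peaks per 100 kb and STAG2 6.92, against 2.61 pooled over all protein-coding genes. Over the whole length of chromosome X, sequence between genes included, peaks outside promoters numbered 0.486 per 100 kb. The STAG2 density depended on the span used and was 19.9 per 100 kb over the canonical transcript. In position, 90 of the 105 peaks lay in introns, 50 of them in a first intron and 24 of those in intron 1 of STAG2. Another 8 lay in 3′ UTRs, 5 of them in that of SMC1A, and 3 lay in coding exons. The remaining 4 lay downstream of the canonical STAG2 transcript, in a stretch covered by a longer annotated one.

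These body peaks were weak, and the higher density rested on the weakest of them. Their fold enrichments ran from 2.24 to 7.44 with a median of 3.19, and their pileups from 13 to 34 fragments with a median of 17. Counting 15 fragments gives an interval of 8.40 to 24.7, so small differences between such peaks were not detectable at this depth. Keeping peaks with a −log10 q of at least 5 left 15, or 1.01 per 100 kb against 1.02 over protein-coding genes, 8 of them in STAG2 and 5 in PDS5A. Requiring a fold enrichment of at least 5 left 2, 1 in STAG2 and 1 in NIPBL, or 0.134 per 100 kb against 0.251 over protein-coding genes, so at this threshold the density of the 10 genes was the lower one. The NIPBL peak, at 7.44 (5.22 to 10.3), lay 2081 bp downstream of its canonical TSS.

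**Figure D5:**
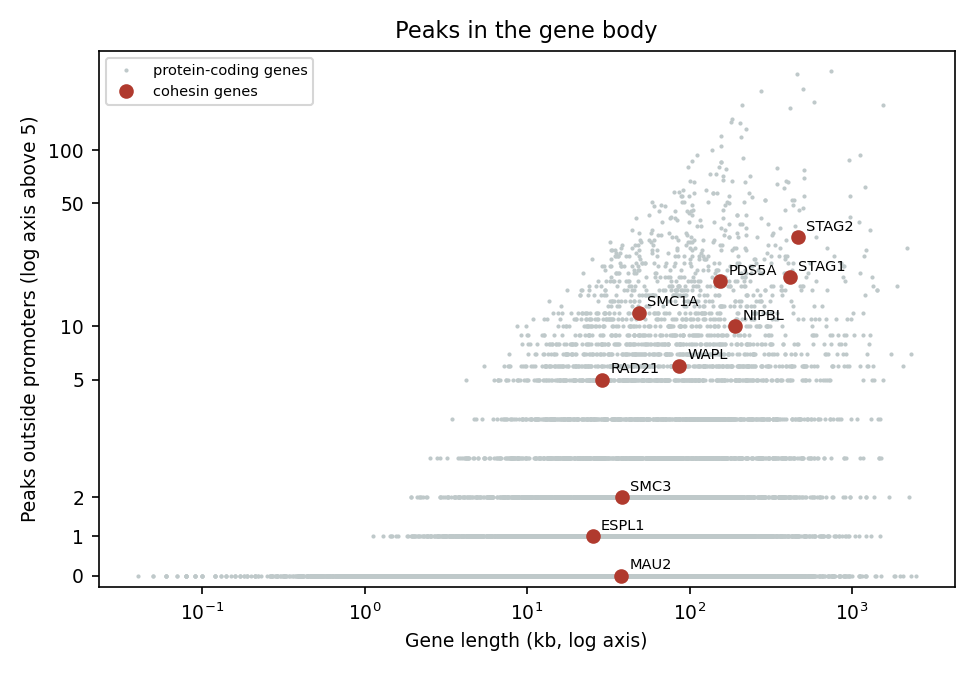
Number of peaks inside each gene outside promoters (vertical axis, log above 5) against gene length (kb, log axis), for all protein-coding genes (grey) and the 10 cohesin genes (named). STAG2, with 32 peaks, and SMC1A, with 12, lie above most genes of like length, and MAU2 has 0.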

How the data were processed

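ChIP-seq was done on A673 cells with 1 MYBL2 library and 1 input library. Per the labels and the study's methods, the authors aligned 100 bp single-end reads to hg19 with Bowtie2 (2.1.10 in the submitters' processing notes) and called narrow peaks with MACS2 (2.0.10) against the input. What a later cleaning of the list removed is not given in the sources used here. The deposited fold enrichment is a linear ratio, the deposited −log10 p and −log10 q and the deposited score come from MACS2, and the summit offset was used as deposited. Whole pileups were solved from the authors' fold enrichment and p for 66954 of 66954 peaks (largest misfit in −log10 p 3.49e-05). Total read depth was not used here.

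Genes were 20098 protein-coding and 18592 lncRNA genes of GENCODE 44 lifted to GRCh37, with 193738 TSSs, and printed sequences were read from that genome. The canonical transcript placed summits in gene features. The work used Python 3.11.15 with scipy 1.17.1 and pysam 0.24.0, checked against bedtools 2.31.1 and on simulated data. The genes, lists and motifs were chosen with earlier results of these data known. All 10 genes are named, with the strongest, weakest and unbound of each related list, genes sharing a promoter, and further regulators (CDCA5, ESCO2, PTTG1, PDS5B, REC8, STAG3) chosen after their values were seen. Alternatives covered peak thresholds, promoter windows, TSS choice, ranking measure and motif windows.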

Additional observations from a re-analysis of the deposited data

How the results depend on the processing

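Of the 119 recomputed values, 113 kept within the spread set by counting error or within 1.5 times of a count. All 10 genes kept a promoter peak under each alternative run for that count, including windows of 500 bp and the outermost TSS only. With the outermost TSS only, 14 of the 16 related cohesin genes had one, DDX11 and REC8 being the exceptions. So did 13 of the 14 condensin and SMC5/6 genes, SMC6 being the exception. The number of gene body peaks fell from 105 to 15 with a −log10 q of at least 5 and to 2 with a fold enrichment of at least 5, by removal of weak peaks. With 100 bp either side of the summit, MYB sites were found at 4 genes (31.7% of all summits) and the YY1 core at 1 (5.23%). The peak nearest to a TSS also gave the YY1 core at 1. It gave the CCAAT box at 2 genes instead of 3 and the GC box at 3 instead of 4. Ranking by pileup instead of fold enrichment put MAU2 at the 99.6th percentile of all genes with a promoter peak, from the 99.8th. PDS5A fell from 63.8 to 53.9, RAD21 from 51.3 to 42.1, STAG1 from 82.6 to 75.1 and NIPBL from 79.0 to 71.9. WAPL fell from 88.0 to 81.7, and ESPL1 rose from 91.4 to 93.3. An alternative chosen after seeing the data, the canonical transcript as the span of a gene, gave 101 body peaks (8.65 per 100 kb against 2.77 over protein-coding genes), with 28 in STAG2, whose density moved from 6.92 to 19.9 per 100 kb. No paired analysis was possible because only a single ChIP library and its input were made. Counting error is the only error these data give, and a gene with many annotated TSSs has more promoter sequence in which a peak can fall.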
